A study of Mus musculus with 9 samples.

Results

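The 40 genes described here encode the proton pump of the lysosome, proteins of its membrane and its soluble hydrolases, the cathepsins and sphingolipid enzymes left aside. They are set by gene symbol with no threshold on a measured value, though the list was drawn up with earlier results of these data known, and each matched 1 of the 53342 rows of the gene table. They fall into 16 pump genes, 9 membrane protein genes and 15 hydrolase genes. All 40 were among the 12511 genes with enough counts to be tested. RNA was sequenced from bone-marrow-derived macrophages of male and female wild-type C57BL/6J mice aged 8 to 12 weeks. The cells were fed homogenate of spinal cord, which models in culture the lipid-laden macrophages found after cord injury. The 3 treatments were compared in 3 biological replicates each, marrow of different animals having been kept apart. The Torin-2 group received an inhibitor that competes with ATP at the mTOR kinase, the rapamycin group an inhibitor of the mTORC1 complex, and the vehicle group the carrier. Per the study's design, rapamycin served to account for loss of mTORC1 activity under Torin-2. Compounds were added 2 h before the homogenate, and all 3 groups then received the same 1% weight per volume of homogenate (10 mg/mL) for 24 h and were washed 3 times. No group went without homogenate, so no value below is an effect of feeding itself. The homogenate was pooled from cords of many mice of up to 20 weeks. Neither compound's dose is given in the sources used here.

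The lysosome breaks down what macrophages engulf, and its enzymes work in the acid that the vacuolar proton pump (V-ATPase) maintains. The pump has a cytosolic V1 sector that splits ATP and a membrane-embedded V0 sector that carries protons. Channels, exchangers and transporters of the lysosomal membrane move chloride, calcium and breakdown products, and soluble hydrolases take apart glycans, proteins and nucleic acids. The same membrane is where mTORC1 is activated by amino acids, and active mTORC1 keeps the MiT/TFE transcription factors out of the nucleus. These factors bind an E-box palindrome known as the CLEAR motif near the starts of many lysosomal genes.

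Library totals ran from 16116666 to 24044329 counts. Levels are given as CPM, counts scaled to a common library size with TMM factors. A gene was called when edgeR's quasi-likelihood p, adjusted over all genes tested after Benjamini and Hochberg, was under 0.05. The 10 macrophage markers, among them Adgre1, Csf1r and Cd68, were all tested and summed to 15604 to 17380 CPM in Torin-2 libraries, 20200 to 21850 CPM in rapamycin libraries and 12236 to 16885 CPM in vehicle libraries. They did not move together: against vehicle, 5 rose and 2 fell with Torin-2, and 7 rose and 2 fell with rapamycin. With Torin-2 against rapamycin, 1 was higher and 7 were lower. Of 9 oligodendrocyte markers, 6 were tested, and the list summed to 367 to 424 CPM under Torin-2, 693 to 847 CPM under rapamycin and 481 to 614 CPM under vehicle. With Torin-2 against vehicle 0 of these 6 rose and 4 fell, and with rapamycin against vehicle 3 rose and 1 fell. Astrocyte markers (5 of 6 tested) summed to 15.1 to 17.1 CPM under Torin-2, 21.4 to 35.3 CPM under rapamycin and 18.2 to 25.1 CPM under vehicle, and neuron markers (5 of 7 tested) to 5.75 to 7.55 CPM under Torin-2, 10.6 to 14.0 CPM under rapamycin and 8.18 to 12.4 CPM under vehicle. Fibroblast markers (3 of 6 tested) summed to 2.38 to 7.17 CPM under Torin-2, 12.3 to 78.2 CPM under rapamycin and 8.95 to 37.8 CPM under vehicle. The lymphocyte markers Cd3e, Cd3g and Nkg7 were at 0 in all 9 libraries. With Torin-2 against vehicle 1 astrocyte, 1 neuron and 3 fibroblast markers fell and 0 rose; with rapamycin 1 astrocyte marker rose. The sums of these 4 lists were thus lowest under Torin-2, without overlap with the other groups, and their part in the changes below was not tested. Beside these marker counts, 32.5% of all genes tested rose and 32.9% fell with Torin-2 against vehicle. With rapamycin against vehicle 24.6% rose and 26.2% fell, and with Torin-2 against rapamycin 24.2% were higher and 24.1% lower. In bulk RNA, fewer cells of a type and less RNA per cell cannot be told apart, and all changes are relative to the other genes.

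Promoters are shown first because several of the genes share a motif but not a direction. RefSeq (GRCm38.p6) gave windows of 250 bases before to 50 bases after the start for 35 of the 40 genes; Atp6v1b2, Atp6v1c1, Atp6v1g1, Atp6v1h and Tpcn1 had none. The letters CACGTG, TCACGTGA and TCACGTGA with G before and C after it (10 bases) were searched on both strands, which for these palindromes are the same, and each shorter word lies inside the longer. CACGTG was found in 13 of the 35 genes (37.1%), against 8.09% of the 27025 genes with a window and 7.15% of all 32851 windows. TCACGTGA was found in 7 of the 35 (20.0%), against 1.12% of genes and 0.974% of windows. Among the 9283 tested genes with a window, 12.1% held CACGTG and 2.27% held TCACGTGA. By class, CACGTG was found in 4 of 12 pump genes, 4 of 8 membrane protein genes and 5 of 15 hydrolase genes. The motif of 10 bases occurred in 1 of the 35, Cln3, against 0.37% of genes and 0.326% of windows.

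Stretches from 160 bases before to 20 bases after the RefSeq start follow, with the motifs in capitals. Cln3 and Clcn7 had the longer motifs and rose under Torin-2. Lamp1 has 4 copies of CACGTG and rose under rapamycin, and Atp6v0d1 has TCACGTGA across its start and fell under both compounds. They lie at chr7:126583217-126583396 (minus strand, at 1 of the starts RefSeq lists), chr17:25133231-25133410 (plus, also at 1 of the starts listed), chr8:13159001-13159180 (plus) and chr8:105566045-105566224 (minus). The other Cln3 and Clcn7 windows held no motif.
Cln3: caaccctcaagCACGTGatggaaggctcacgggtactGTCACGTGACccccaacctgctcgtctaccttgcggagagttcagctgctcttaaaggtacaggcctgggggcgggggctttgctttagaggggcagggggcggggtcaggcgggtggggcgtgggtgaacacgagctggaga
Clcn7: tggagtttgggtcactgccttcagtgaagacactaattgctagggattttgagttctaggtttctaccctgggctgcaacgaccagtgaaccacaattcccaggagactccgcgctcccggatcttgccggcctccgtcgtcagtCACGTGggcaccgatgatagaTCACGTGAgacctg
Lamp1: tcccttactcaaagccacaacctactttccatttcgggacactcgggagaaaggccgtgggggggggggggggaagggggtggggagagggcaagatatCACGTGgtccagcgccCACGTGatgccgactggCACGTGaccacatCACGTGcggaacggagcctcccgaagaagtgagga
Atp6v0d1: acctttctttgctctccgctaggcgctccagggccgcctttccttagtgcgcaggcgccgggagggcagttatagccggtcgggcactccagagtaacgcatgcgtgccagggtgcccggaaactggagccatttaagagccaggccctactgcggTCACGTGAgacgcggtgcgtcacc
The 7 genes with TCACGTGA went several ways. With Torin-2 against vehicle, Atp6v1a, Clcn7, Cln3 and Mcoln1 rose, Atp6v0d1 and Atp6v0e fell, and Gla did not pass. With rapamycin against vehicle, Cln3 rose, Atp6v0d1, Atp6v0e and Clcn7 fell, and the other 3 did not pass. Of all genes tested, 32.5% rose and 32.9% fell with Torin-2, and 24.6% rose and 26.2% fell with rapamycin. The calls of Atp6v1a with Torin-2, and of Cln3 and Clcn7 with rapamycin, were lost when certain single libraries were left out, as given below. A match is only a run of letters, and binding was not measured here.

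**Figure D1:**
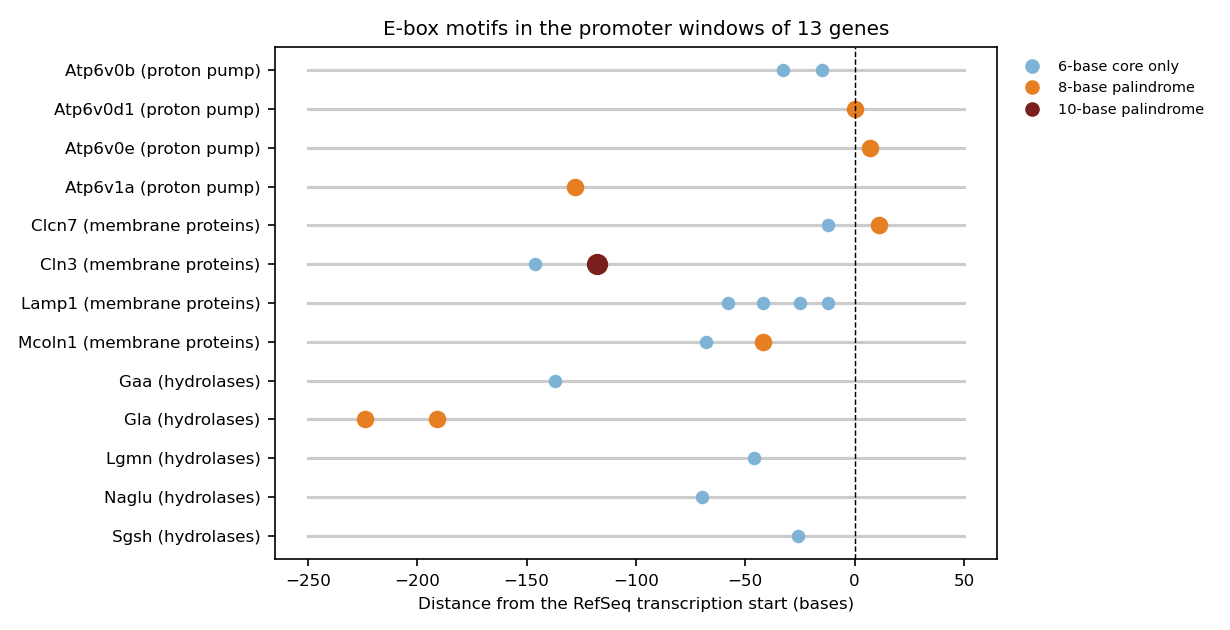
Position of each motif in the promoter windows of the 13 genes that hold CACGTG, in bases from the RefSeq transcription start (dashed line). Each grey line is a window of 250 bases before to 50 bases after the start; colours mark the longest motif at each place, and Lamp1 shows 4 copies of the shortest.

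Under Torin-2 most pump genes fell and most membrane protein genes rose. Against vehicle, 11 of 16 pump genes fell and 1 rose, 6 of 9 membrane protein genes rose and 1 fell, and the hydrolases split, with 5 of 15 higher and 6 lower. The 1 higher pump gene, Atp6v1a, was joined by Atp6v1c1 with a replicate block and lost when single libraries were left out, as given below. In all, 12 of the 40 genes rose and 18 fell, so 30 were called where 65.4% of all genes tested were (32.5% higher and 32.9% lower). The median log2 change was -0.30 for the pump, 0.37 for the membrane proteins and -0.04 for the hydrolases (-0.0983 to -0.0067 when single libraries were left out), beside -0.01 for all genes. Changes were small, and only Cln3 and Idua passed 2-fold, both higher, where 10.1% of all genes rose and 10.6% fell by at least that much. The groups did not overlap for 32 of the 40 genes, against 70.2% of all genes. For 8 of the 40 (Atp6v0b, Atp6v1e1, Cln3, Idua, Lamp1, Ostm1, Ppt1 and Sgsh), exon bases are shared with another tested gene on the other strand. Whether counting used strand is not stated, so these values are uncertain to that extent.

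With rapamycin against vehicle, 10 of the 40 rose and 12 fell, where 50.8% of all genes were called (24.6% higher and 26.2% lower). Of the 16 pump genes, 0 rose and 7 fell. Among membrane proteins 4 rose and 3 fell, and among hydrolases 6 rose and 2 fell. Median log2 changes were -0.12 for the pump, 0.06 for the membrane proteins and 0.02 for the hydrolases, beside 0.00 for all genes. When libraries were scaled by their totals alone, the medians became -0.22, -0.04 and -0.08, so the sign of the last 2 classes depends on scaling. When single libraries were left out, the medians of these classes ran between 0.01 and 0.08 and between 0.01 and 0.09. That scaling also moved the split to 8 higher and 19 lower, and it shifted the median of all genes by -0.09. With it Cln3 and Fuca1 lost their calls, at 0.07 and 0.06 on the log2 scale (adjusted p = 0.304 and 0.330, edgeR). Man2b1 was the only member past 2-fold, where 3.45% of all genes rose and 5.15% fell that far. The groups did not overlap for 28 of the 40, against 57.5% of all genes. Both compounds were compared with the same vehicle libraries, so their changes share that source of error.

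Set directly against rapamycin, Torin-2 gave higher values for 7 of the 40 genes and lower values for 20, where 48.2% of all genes were called (24.2% higher and 24.1% lower). The pump had 1 higher and 10 lower of 16, the membrane proteins 5 higher and 4 lower of 9, and the hydrolases 1 higher and 6 lower of 15. Every membrane protein gene thus passed this test, and the groups did not overlap for any of them. Median log2 differences were -0.18, 0.31 and -0.11, beside a median of -0.00 for all genes. With library totals alone the split was 9 higher and 13 lower, and the pump had 2 higher and 4 lower. The calls that ended there were those of Atp6ap1 (-0.13), Atp6ap2 (-0.09), Atp6v0a1 (-0.14), Atp6v0b (-0.14), Atp6v0c (-0.15), Atp6v0d1 (-0.07) and Dnase2a (-0.10), with adjusted p of 0.0513 to 0.255 (edgeR). With a replicate block the pump had 2 higher. Tpcn2 was the only gene of the 40 past 2-fold, where 5.17% of all genes were higher and 4.41% lower by that much. The groups did not overlap for 29 of the 40, against 57.2% of all genes.

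**Figure D2:**
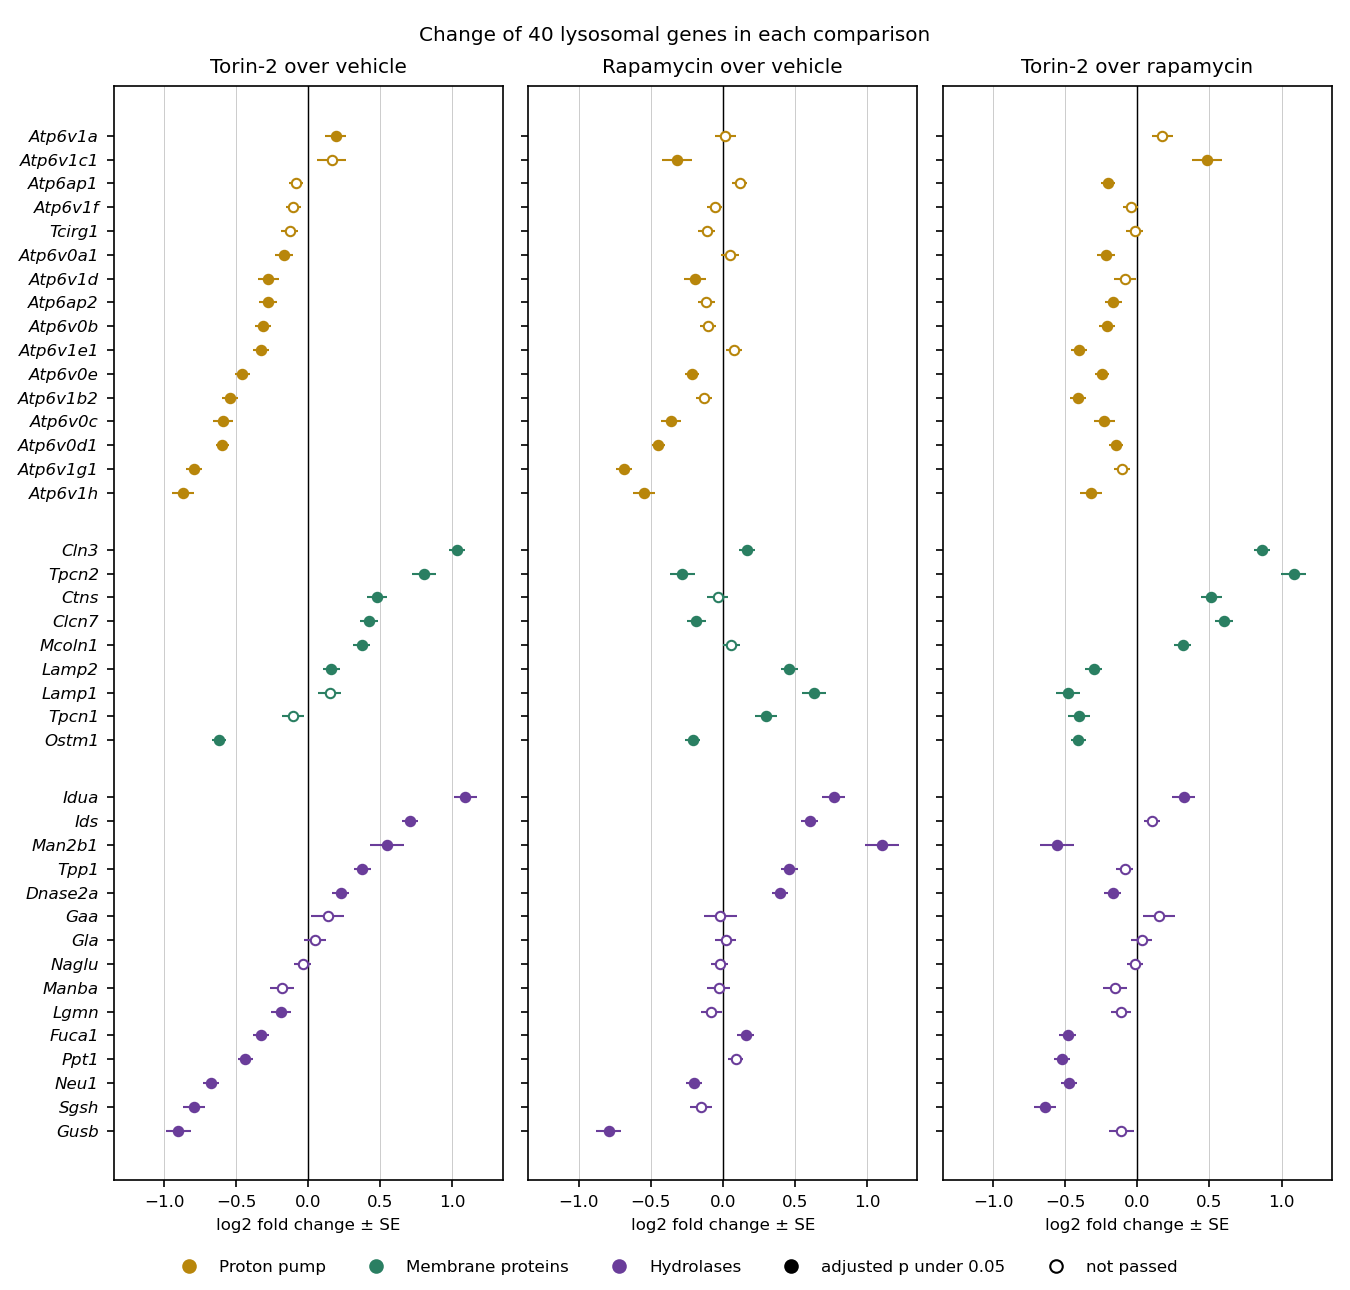
Log2 fold change of each of the 40 genes in the 3 comparisons, by class, with bars of 1 SE from edgeR's fit of 9 libraries; filled points passed an adjusted p of 0.05. Most pump genes lie left of 0 with Torin-2 against vehicle, down to -0.87 for Atp6v1h, while most membrane protein genes lie right of it, up to 1.03 for Cln3.

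Summed over each class, the pump transcripts gave 5750.3, 5936 and 5908 CPM in the Torin-2 libraries, 6061, 5992 and 6579 CPM in the rapamycin libraries and 6806, 6694 and 6857 CPM in the vehicle libraries. All 3 vehicle sums exceeded all 6 sums of the treated libraries, and the Torin-2 mean was 0.864 of the vehicle mean. The membrane protein genes summed to 3489.8 ± 71.2 CPM under Torin-2, 4129 ± 199 CPM under rapamycin and 3055 ± 192 CPM under vehicle (SD, n = 3 each). Rapamycin gave the highest membrane sum, of which Lamp1 alone was 2263 ± 134 CPM. The hydrolases summed to 4943 ± 17.8 CPM under Torin-2, 5496 ± 130.4 CPM under rapamycin and 5327 ± 381 CPM under vehicle, and the Torin-2 and vehicle libraries overlapped. Per exon length, Lgmn was the most abundant of the 40 in vehicle libraries at 3228 TPM, followed by Lamp1 at 1683 TPM and Atp6v1g1 at 1104 TPM. Ids, at 22.5 TPM, was the least abundant.

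**Figure D3:**
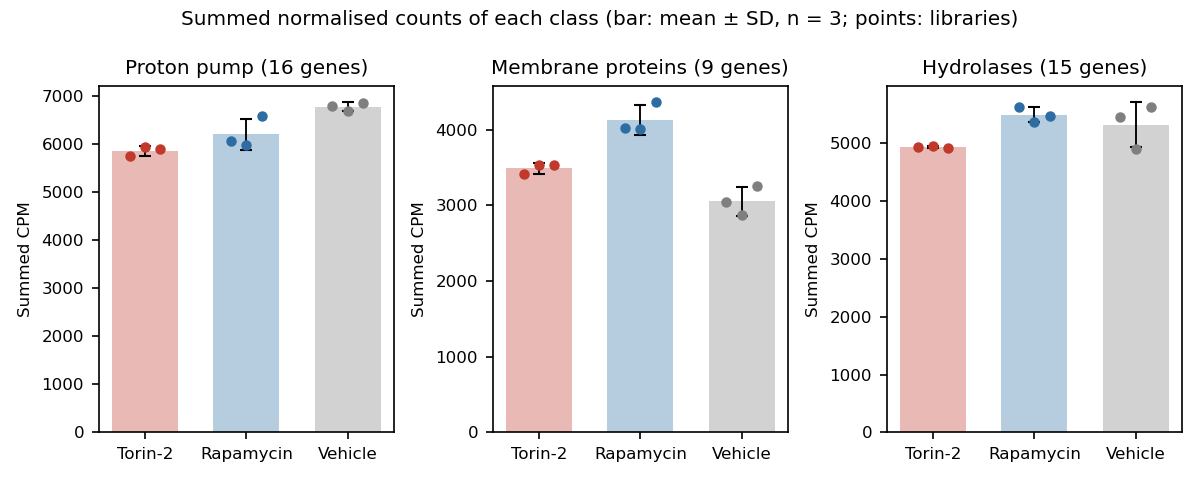
Summed CPM of the pump (16), membrane protein (9) and hydrolase (15) genes in each library, with mean and SD of 3 libraries per treatment. The pump sum is highest in vehicle and the membrane protein sum highest in rapamycin, with Torin-2 at 5865 and 3490 CPM.

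In the V1 sector, which holds the ATP-splitting head and the stalks that join it to the membrane, Torin-2 against vehicle gave 5 lower and 1 higher of 8 genes. Atp6v1h (H, a regulatory subunit; ENSMUSG00000033793, chromosome 1 from 5070018 to 5162529, GRCm38 as all positions here) had 137, 148 and 128 CPM in the Torin-2 libraries, 156, 182 and 178 CPM in the rapamycin libraries and 242, 270.1 and 242 CPM in the vehicle libraries. The 3 groups did not overlap, Torin-2 being lowest. Its log2 change was -0.87 ± 0.08 with Torin-2 and -0.55 ± 0.08 with rapamycin against vehicle, and -0.32 ± 0.08 with Torin-2 against rapamycin (SE, adjusted p = 9.57e-07, 0.000103 and 0.00403, edgeR's quasi-likelihood test). Atp6v1g1 (G, a stalk subunit; ENSMUSG00000039105, chromosome 4 from 63544772 to 63550750) had 232, 244 and 229.5 CPM in the Torin-2 libraries, 239, 263 and 257 CPM in the rapamycin libraries and 408, 387 and 425 CPM in the vehicle libraries. Both compounds lowered it clear of vehicle, and overlap each other. The log2 change was -0.79 ± 0.06 under Torin-2 (adjusted p = 1.96e-07, edgeR) and -0.68 ± 0.06 under rapamycin (adjusted p = 2.58e-06), and the difference of -0.11 ± 0.06 between the compounds did not pass (adjusted p = 0.143).

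The A and B subunits, which alternate in the catalytic head, had changes of opposite sign under Torin-2. Atp6v1a, the catalytic A subunit (ENSMUSG00000052459, chromosome 16 from 44085402 to 44139705), had 1519, 1542 and 1615 CPM in the Torin-2 libraries, 1327, 1275 and 1547 CPM in the rapamycin libraries and 1373, 1357 and 1369.9 CPM in the vehicle libraries. The Torin-2 libraries lie above all vehicle libraries, with a log2 change of 0.19 ± 0.07 (adjusted p = 0.0341, edgeR). Leaving out any of the 6 Torin-2 or vehicle libraries ended that call (adjusted p 0.0569 to 0.106). Atp6v1b2, the B subunit of most tissues (ENSMUSG00000006273, chromosome 8 from 69088646 to 69113711), had 771, 762 and 759.7 CPM in the Torin-2 libraries, 1027, 954 and 1068 CPM in the rapamycin libraries and 1142, 1074 and 1127 CPM in the vehicle libraries. Under Torin-2 it fell by 0.54 ± 0.06 on the log2 scale against vehicle (adjusted p = 4.41e-06, edgeR) and by 0.41 ± 0.06 against rapamycin (adjusted p = 9.80e-05), and its Torin-2 values overlap no others. With rapamycin against vehicle the log2 value for Atp6v1b2 was -0.13 (adjusted p = 0.0704), which passed with a replicate block (adjusted p = 0.0440) or without rapamycin replicate 3 (0.0294). Within each library, counts per exon length gave an A to B ratio of 1.73, 1.78 and 1.87 under Torin-2, 1.13, 1.17 and 1.27 under rapamycin and 1.06, 1.11 and 1.07 under vehicle. The Torin-2 ratios stand apart from both other groups. This pair and those below were picked after their values were seen, so the ratios carry no test.

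Among the other V1 genes, Atp6v1c1 (C, a subunit known from yeast to leave the pump when it comes apart) had 464, 472 and 549.6 CPM in the Torin-2 libraries, 319, 325 and 421 CPM in the rapamycin libraries and 423, 437 and 468 CPM in the vehicle libraries. Rapamycin gave the lowest values, and Torin-2 exceeded rapamycin without overlap by 0.48 ± 0.10 on the log2 scale (adjusted p = 0.00236, edgeR). Against vehicle the change of Atp6v1c1 was -0.32 ± 0.10 with rapamycin (adjusted p = 0.0223), a call that ended without rapamycin replicate 1, rapamycin replicate 2 or vehicle replicate 3 (adjusted p 0.0624 to 0.0966). With Torin-2 it was 0.16 (adjusted p = 0.188), which passed with a replicate block (0.0261). Atp6v1e1 (E, a stalk subunit) had 203, 214 and 213 CPM in the Torin-2 libraries, 277, 267 and 293 CPM in the rapamycin libraries and 265, 251 and 275 CPM in the vehicle libraries. It was lower in Torin-2 than in the other groups, at -0.33 against vehicle and -0.41 against rapamycin on the log2 scale, both called. Atp6v1d, of the central stalk, changed by -0.28 with Torin-2 and -0.19 with rapamycin against vehicle (adjusted p = 0.0056 and 0.0465, edgeR), and 8 of the 9 single omissions, that of rapamycin replicate 3 apart, ended the rapamycin call (adjusted p 0.0579 to 0.181). Atp6v1f, also of the stalk, passed in 0 of the 3 comparisons, at -0.10, -0.06 and -0.05. The Atp6v1a difference between the compounds, 0.17 (adjusted p = 0.0645), passed with a replicate block (0.0261) and without rapamycin replicate 3 (0.00262).

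In the V0 sector, which carries the protons, 5 of 6 genes fell under Torin-2 against vehicle and 3 of 6 under rapamycin, with 0 higher in either. Atp6v0d1, the d subunit that links the rotor to the stalk (ENSMUSG00000013160, chromosome 8 from 105524465 to 105566047), had 224, 231 and 224 CPM in the Torin-2 libraries, 244, 258 and 251 CPM in the rapamycin libraries and 344, 338 and 345 CPM in the vehicle libraries. The 3 groups are separate and the spread within each is small. Its log2 change was -0.60 ± 0.05 under Torin-2 and -0.45 ± 0.05 under rapamycin (adjusted p = 3.73e-07 and 1.29e-05, edgeR). The gap of -0.15 ± 0.05 between the compounds (adjusted p = 0.0202) was lost without Torin-2 replicate 1, Torin-2 replicate 3 or rapamycin replicate 2 (adjusted p 0.0639 to 0.0750). The ring subunits Atp6v0c and Atp6v0b changed by -0.59 and -0.31 with Torin-2, and by -0.36 and -0.10 with rapamycin, the last not called (adjusted p = 0.155). Atp6v0c has a pseudogene in the table, Atp6v0c-ps2, with 53 to 103 counts per library beside 887 to 1802 for the gene. How reads that match both were counted is not given, so the size of the error in the Atp6v0c values is not known. Atp6v0e, a small membrane subunit, changed by -0.46 and -0.21, both called.

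The a subunit forms the path for protons and sets where the pump goes, and a3, encoded by Tcirg1, is the form of lysosomes and of the osteoclast border. Tcirg1 passed in 0 comparisons, at -0.13, -0.11 and -0.02 on the log2 scale, though the first passed without Torin-2 replicate 2 (adjusted p = 0.0270). Atp6v0a1 changed by -0.17 under Torin-2 against vehicle (adjusted p = 0.0316, edgeR), a call lost without any one of Torin-2 replicates 1, 2 and 3 or vehicle replicates 1 and 3 (adjusted p 0.0646 to 0.108). Tcirg1 made up 68.2% ± 1.57 of the sum of both, per exon length, under Torin-2, 65.2% ± 1.03 under rapamycin and 67.6% ± 0.909 under vehicle (SD, n = 3 each), with the 3 rapamycin shares just below all others. The accessory genes Atp6ap1 and Atp6ap2, which help assemble the pump, were both lower in Torin-2 than in rapamycin (-0.20 and -0.17), and Atp6ap2 was also lower than in vehicle (-0.28). Between the compounds, Atp6v0a1 (-0.22) lost its call without rapamycin replicate 1 (adjusted p = 0.0540). Atp6v0c (-0.23) lost it without Torin-2 replicate 2 (0.0731) or rapamycin replicate 2 (0.0837). Atp6ap2 lost it without any one of Torin-2 replicates 1 and 3, rapamycin replicates 2 and 3 or vehicle replicate 1 (0.0609 to 0.159).

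Of 9 further pump isoform genes outside the 40, 4 were tested, and Atp6v1b1, Atp6v1c2, Atp6v1e2, Atp6v1g3 and Atp6v0a4 had 0 counts in all libraries. Against vehicle, 1 of the 4 rose and 1 fell with Torin-2, and 0 rose and 1 fell with rapamycin. The gene that fell was Atp6v0a2, an a isoform, with means of 38.2 CPM under Torin-2, 66.6 CPM under rapamycin and 78.3 CPM under vehicle. Its log2 change against vehicle was -1.04 with Torin-2 and -0.23 with rapamycin (adjusted p = 1.77e-08 and 0.00376, edgeR), without overlap. Atp6v0d2, the d isoform known from osteoclasts and macrophages, ran against its partner. It had 942, 950.1 and 982 CPM in the Torin-2 libraries, 340.0, 269 and 382 CPM in the rapamycin libraries and 431, 334 and 476 CPM in the vehicle libraries. Torin-2 libraries stand well above both other groups, which overlap. The log2 change was 1.21 ± 0.13 against vehicle and 1.54 ± 0.13 against rapamycin (adjusted p = 6.92e-06 and 3.26e-06, edgeR), while rapamycin against vehicle gave -0.32 (adjusted p = 0.0598). Per exon length, Atp6v0d2 was 73.5%, 73.1% and 74.3% of the sum of both d isoforms in the Torin-2 libraries, 48.0%, 40.8% and 50.1% in the rapamycin libraries and 45.2%, 39.5% and 47.6% in the vehicle libraries. The 95% Wilson intervals of these shares, which cover counting error only, span 72.4% to 74.8% under Torin-2, 39.9% to 51.0% under rapamycin and 38.7% to 48.4% under vehicle. An exact permutation test of 3 libraries against 3 cannot give a 2-sided p below 0.10, so the separation of these shares is a description. Of 9 assembly and regulation genes, 3 rose and 5 fell under Torin-2 against vehicle, and 1 rose and 6 fell under rapamycin. Tmem199, an assembly factor, had 16.6, 16.2 and 14.6 CPM in the Torin-2 libraries, 26.5, 26.0 and 28.9 CPM in the rapamycin libraries and 45.1, 45.9 and 50.1 CPM in the vehicle libraries, the largest fall among them under Torin-2 (-1.58 ± 0.08, adjusted p = 1.10e-08, edgeR). Its partner Ccdc115 fell under both compounds (-0.79 and -1.01), and so did Vma21, a V0 assembly chaperone (-0.76 and -0.46), and Rogdi (-1.37 and -0.62). Ncoa7, Dmxl2 and Oxr1 rose under Torin-2 against vehicle (0.55, 0.50 and 0.24). Beside the counts of this list and of the other lists below, 32.5% of all genes rose and 32.9% fell under Torin-2 against vehicle. Under rapamycin against vehicle, 24.6% of all genes rose and 26.2% fell.

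**Figure D4:**
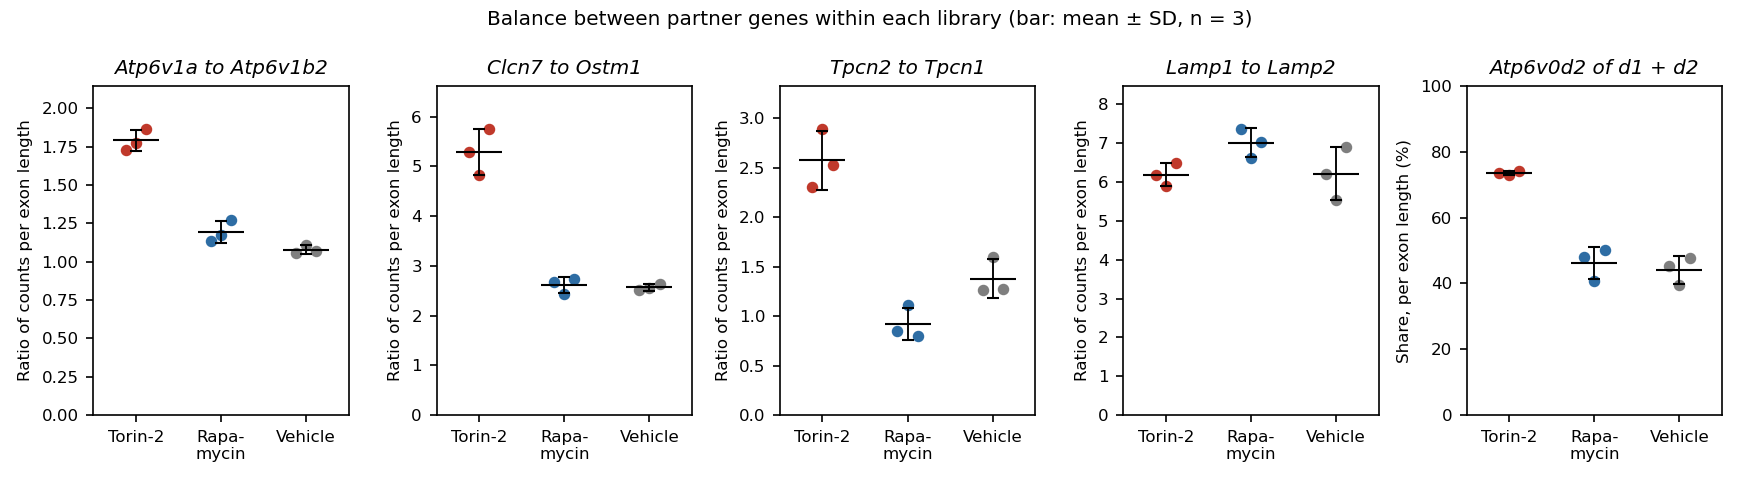
Within-library ratios of counts per exon length for 4 gene pairs, and the share of Atp6v0d2 in both d isoforms, with mean and SD of 3 libraries per treatment. The Torin-2 libraries are above the others in every panel but Lamp1 to Lamp2, where they overlap vehicle and lie below rapamycin; the d2 share is 73.1% to 74.3% there.

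Among the membrane protein genes, 6 of 9 rose under Torin-2 against vehicle. Cln3, a membrane protein mutated in juvenile neuronal ceroid lipofuscinosis (ENSMUSG00000030720, chromosome 7 from 126571207 to 126585817), had 111, 115 and 109.6 CPM in the Torin-2 libraries, 60.1, 64.4 and 59.5 CPM in the rapamycin libraries and 53.7, 54.7 and 55.6 CPM in the vehicle libraries. Torin-2 libraries stand clear of both other groups, with a log2 change of 1.03 ± 0.05 against vehicle (adjusted p = 1.36e-08, edgeR) and 0.87 ± 0.05 against rapamycin (adjusted p = 2.47e-07). Rapamycin against vehicle gave 0.17 ± 0.05 (adjusted p = 0.0222), lost without rapamycin replicate 2 (0.0914) or vehicle replicate 1 (0.0836), with no filter (0.104) and with library totals alone (0.07, adjusted p = 0.304). Cln3 shares 442 exon bases with Apobr on the other strand, and strand use in counting is not given; Apobr averaged 40.4 CPM over all libraries and changed by -0.69 with Torin-2 and 0.48 with rapamycin against vehicle. Tpcn2, a cation channel of endosomes and lysosomes (ENSMUSG00000048677, chromosome 7 from 145186524 to 145284011), had 93.7, 107 and 96.6 CPM in the Torin-2 libraries, 45.9, 52.8 and 41.5 CPM in the rapamycin libraries and 55.4, 59.4 and 55.5 CPM in the vehicle libraries. Here the compounds went opposite ways from vehicle, Torin-2 up by 0.80 ± 0.08 (adjusted p = 4.64e-06, edgeR) and rapamycin down, at -0.28 ± 0.09 (adjusted p = 0.0172). The direct difference was 1.08 ± 0.09 (adjusted p = 1.58e-06), the largest among the 40 genes between the compounds. The rapamycin call was lost without rapamycin replicate 1, rapamycin replicate 3 or vehicle replicate 2 (adjusted p 0.0512 to 0.0628).

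Clcn7, the chloride-proton exchanger of lysosomes (ENSMUSG00000036636, chromosome 17 from 25133391 to 25162104), showed the same pattern as Tpcn2. It had 393, 385 and 438 CPM in the Torin-2 libraries, 264, 253 and 283 CPM in the rapamycin libraries and 298, 298 and 313 CPM in the vehicle libraries. Torin-2 values are the highest and rapamycin values the lowest, with no overlap. The log2 change was 0.42 ± 0.06 with Torin-2 (adjusted p = 9.33e-05, edgeR) and -0.18 ± 0.06 with rapamycin against vehicle (adjusted p = 0.0303), and 0.60 ± 0.06 between them (adjusted p = 1.29e-05). The rapamycin call was lost without rapamycin replicates 1 or 2 or vehicle replicates 1 or 3 (adjusted p 0.0611 to 0.115). Ostm1, the subunit that Clcn7 needs for its stability (ENSMUSG00000038280, chromosome 10 from 42583822 to 42702459), went the other way, at 101, 109 and 104 CPM in the Torin-2 libraries, 134, 142 and 141 CPM in the rapamycin libraries and 162, 158 and 161 CPM in the vehicle libraries. It was the only membrane protein gene to fall under Torin-2 against vehicle, with a log2 change of -0.62 ± 0.05 (adjusted p = 4.98e-07, edgeR), and it also fell under rapamycin (-0.21 ± 0.05, adjusted p = 0.00406). The Clcn7 to Ostm1 ratio of counts per exon length averaged 5.29 ± 0.464 under Torin-2, 2.62 ± 0.159 under rapamycin and 2.57 ± 0.0681 under vehicle (SD, n = 3 each). The Torin-2 ratios lie above all others, whereas rapamycin and vehicle overlap.

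Tpcn1, the channel related to Tpcn2, rose only under rapamycin, with 65.5, 59.4 and 61.4 CPM in the Torin-2 libraries, 87.1, 76.6 and 83.2 CPM in the rapamycin libraries and 70.3, 59.6 and 70.2 CPM in the vehicle libraries. Its log2 change against vehicle was -0.10 with Torin-2 (adjusted p = 0.255, or 0.0459 without vehicle replicate 2) and 0.30 ± 0.08 with rapamycin (adjusted p = 0.00614, edgeR). Torin-2 was lower than rapamycin, with a log2 difference of -0.41 ± 0.08 (adjusted p = 0.000995). The Tpcn2 to Tpcn1 ratio per exon length was 2.58 ± 0.298 under Torin-2, 0.920 ± 0.165 under rapamycin and 1.38 ± 0.193 under vehicle (SD, n = 3 each), and the 3 groups do not overlap. Mcoln1, the TRPML1 calcium channel, averaged 98.5 ± 5.38 CPM under Torin-2, 79.2 ± 4.00 CPM under rapamycin and 76.1 ± 1.41 CPM under vehicle, and rose only with Torin-2 against vehicle (0.37 ± 0.06, adjusted p = 0.000142, edgeR). Ctns, the cystine exporter, had 50.0, 49.6 and 56.5 CPM in the Torin-2 libraries, 33.9, 38.7 and 36.7 CPM in the rapamycin libraries and 36.7, 36.9 and 38.7 CPM in the vehicle libraries. It too rose with Torin-2 against vehicle (0.48 ± 0.07, adjusted p = 0.000101) and not with rapamycin (-0.04), and both genes were higher with Torin-2 than with rapamycin (0.31 and 0.51).

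The structural glycoproteins that coat the inside of the membrane were highest under rapamycin. Lamp1 (ENSMUSG00000031447, chromosome 8 from 13159161 to 13175338) had 1585, 1621 and 1655 CPM in the Torin-2 libraries, 2237, 2145 and 2409 CPM in the rapamycin libraries and 1454, 1293 and 1636 CPM in the vehicle libraries. Rapamycin libraries lie above all others, by 0.63 ± 0.08 on the log2 scale against vehicle (adjusted p = 6.37e-05, edgeR), and Torin-2 was lower than rapamycin (log2 difference -0.48 ± 0.08, adjusted p = 0.000444). Torin-2 against vehicle gave 0.15 (adjusted p = 0.128), with overlap, and passed with a replicate block (0.0404) or without vehicle replicate 3 (0.0152). Lamp2 had 914, 983 and 912 CPM in the Torin-2 libraries, 1084, 1156 and 1221 CPM in the rapamycin libraries and 837, 833 and 846 CPM in the vehicle libraries. The groups follow the same order without overlap, at 0.16 ± 0.06 with Torin-2 (adjusted p = 0.0321, edgeR) and 0.46 ± 0.06 with rapamycin against vehicle (adjusted p = 6.01e-05), and the Torin-2 call was lost without Torin-2 replicates 1 or 2 or any vehicle library (0.0533 to 0.152), and with library totals alone (0.0512). Within each library the Lamp1 to Lamp2 ratio of counts per exon length was 6.19, 5.89 and 6.48 under Torin-2, 7.37, 6.63 and 7.04 under rapamycin and 6.20, 5.54 and 6.91 under vehicle, and the vehicle range overlaps both others. Macrophage markers summed highest in the same rapamycin libraries, where 7 of the 10 rose and 2 fell against vehicle, beside 24.6% and 26.2% of all genes. The part of these markers in the changes was not tested. Of 25 other lysosomal membrane genes, 23 were tested, with 8 higher and 9 lower under Torin-2 and 6 higher and 9 lower under rapamycin against vehicle. Hgsnat, which acetylates heparan sulfate across the membrane, had 703, 740.2 and 623 CPM in the Torin-2 libraries, 665, 686 and 652 CPM in the rapamycin libraries and 241, 205 and 221 CPM in the vehicle libraries. Both compounds raised it with no overlap, by 1.63 ± 0.08 and 1.59 ± 0.08 on the log2 scale (adjusted p = 6.27e-09 and 4.84e-08, edgeR). Slc15a3, a peptide and histidine transporter, fell under both (-1.60 and -1.16), and Slc29a3, a nucleoside transporter, rose under Torin-2 and fell under rapamycin (0.62 and -0.42).

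**Figure D5:**
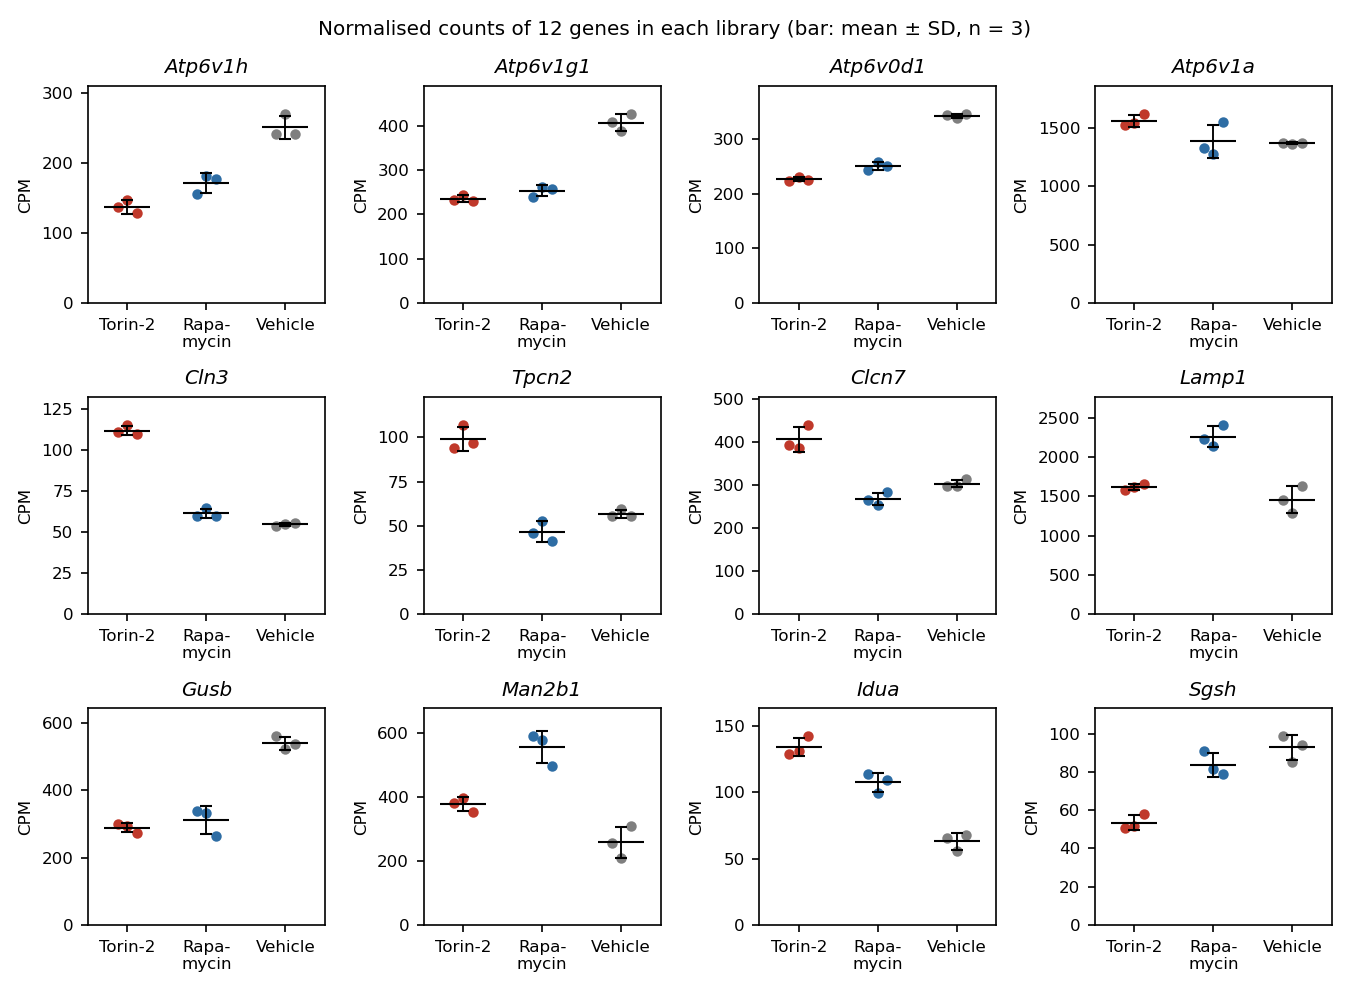
CPM of 12 genes in each library, 3 libraries per treatment, with mean and SD; the axes start at 0. Atp6v1h, Atp6v1g1, Atp6v0d1 and Gusb are highest in vehicle, Cln3, Tpcn2, Clcn7 and Idua highest in Torin-2, and Lamp1 and Man2b1 highest in rapamycin.

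The hydrolases were split in direction. Idua, the iduronidase of heparan and dermatan sulfate breakdown (ENSMUSG00000033540, chromosome 5 from 108660331 to 108684557), had 129, 131 and 142 CPM in the Torin-2 libraries, 114, 99.3 and 109 CPM in the rapamycin libraries and 65.9, 55.6 and 67.4 CPM in the vehicle libraries. It was highest under Torin-2, between under rapamycin and lowest in vehicle, with no overlap. Log2 changes were 1.09 ± 0.08 with Torin-2 and 0.77 ± 0.08 with rapamycin against vehicle, and 0.32 ± 0.08 between them (adjusted p = 2.54e-07, 1.46e-05 and 0.00557, edgeR). Ids, the iduronate sulfatase that acts before it, had 60.3, 62.6 and 59.4 CPM in the Torin-2 libraries, 58.7, 56.6 and 54.4 CPM in the rapamycin libraries and 36.8, 36.8 and 38.1 CPM in the vehicle libraries. Both compounds raised it clear of vehicle (0.71 ± 0.06 and 0.60 ± 0.06, adjusted p = 4.27e-07 and 6.11e-06). Sgsh, the sulfamidase of heparan sulfate breakdown, moved the other way, with 50.8, 51.7 and 58.1 CPM in the Torin-2 libraries, 90.8, 81.3 and 78.7 CPM in the rapamycin libraries and 98.6, 85.4 and 94.3 CPM in the vehicle libraries. It fell with Torin-2, at -0.79 ± 0.08 against vehicle (adjusted p = 2.88e-06, edgeR) and -0.64 ± 0.08 against rapamycin (adjusted p = 4.19e-05), while rapamycin and vehicle overlapped (-0.15, adjusted p = 0.125). Naglu, a glucosaminidase of the same pathway, passed in 0 comparisons, within 0.04 of no change on the log2 scale. Gusb, the glucuronidase of this pathway (ENSMUSG00000025534, chromosome 5 from 129989011 to 130003049), had 299, 294 and 274 CPM in the Torin-2 libraries, 340.4, 332 and 264 CPM in the rapamycin libraries and 561, 522 and 537 CPM in the vehicle libraries. Both compounds lowered it clear of vehicle, at -0.90 ± 0.09 and -0.79 ± 0.09 (adjusted p = 2.05e-06 and 1.77e-05), and a difference between them passed without rapamycin replicate 3 (0.00992) or without replicate 3 of every group (0.0280). Enzymes of 1 degradation pathway thus moved up, down or not past the test in the same libraries.

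Of 4 enzymes that trim sugars from glycoproteins, Man2b1, Fuca1 and Neu1 were lower with Torin-2 than with rapamycin, while Manba gave -0.16 (adjusted p = 0.137, edgeR, or 0.0487 when only those 2 groups were fitted). Man2b1, the lysosomal alpha-mannosidase (ENSMUSG00000005142, chromosome 8 from 85083270 to 85098282), had 380.3, 398 and 354 CPM in the Torin-2 libraries, 589.9, 578 and 499 CPM in the rapamycin libraries and 257, 210.1 and 308 CPM in the vehicle libraries. Rapamycin libraries are highest, Torin-2 libraries intermediate and vehicle libraries lowest. The log2 change was 0.55 ± 0.12 with Torin-2 and 1.10 ± 0.12 with rapamycin against vehicle, and -0.56 ± 0.12 between them (adjusted p = 0.00133, 1.52e-05 and 0.00187, edgeR). Fuca1, the fucosidase, had 133, 139 and 132 CPM in the Torin-2 libraries, 190.5, 186 and 188 CPM in the rapamycin libraries and 173, 156 and 177 CPM in the vehicle libraries. Torin-2 was below vehicle (-0.33 ± 0.06, adjusted p = 0.000301) and rapamycin above it (0.16 ± 0.06, adjusted p = 0.0352). The rapamycin call of Fuca1 was lost without any one of Torin-2 replicates 1 and 2, rapamycin replicates 1, 2 and 3 or vehicle replicates 1 and 2 (adjusted p 0.0516 to 0.139), with no filter (0.0833) and with library totals alone (0.06, adjusted p = 0.330), and the direct difference was -0.48 ± 0.06 (adjusted p = 2.93e-05). Neu1, the sialidase, had 135, 142 and 132 CPM in the Torin-2 libraries, 179, 197 and 192 CPM in the rapamycin libraries and 214, 223 and 216 CPM in the vehicle libraries. The 3 groups are separate, and it fell with Torin-2 (-0.67 ± 0.05) and with rapamycin (-0.20 ± 0.05) against vehicle (adjusted p = 5.04e-07 and 0.00887, edgeR). Manba, the beta-mannosidase, gave -0.18 with Torin-2 against vehicle (adjusted p = 0.0654), which passed with a replicate block (0.0364) or without vehicle replicate 3 (0.00442).

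Of the remaining hydrolases, Ppt1, which removes palmitate from proteins, had 96.9, 104 and 92.5 CPM in the Torin-2 libraries, 139, 143 and 140.1 CPM in the rapamycin libraries and 136, 129 and 132 CPM in the vehicle libraries. It fell under Torin-2, at -0.44 ± 0.06 against vehicle and -0.52 ± 0.06 against rapamycin (adjusted p = 2.20e-05 and 1.29e-05, edgeR). Ppt1 shares 129 exon bases with Cap1 (787 CPM on average), which gave 0.09 with Torin-2 against vehicle and -0.25 against rapamycin. Tpp1, a serine peptidase, averaged 485 ± 23.6 CPM under Torin-2, 515 ± 21.8 CPM under rapamycin and 374 ± 18.1 CPM under vehicle, and both compounds raised it (0.37 and 0.46). Dnase2a, the acid DNase, also rose with both (0.23 and 0.40), and its lower value with Torin-2 than with rapamycin (-0.17) was lost without Torin-2 replicates 1 or 2 or rapamycin replicates 1 or 3 (adjusted p 0.0665 to 0.107). Lgmn, the asparaginyl endopeptidase legumain and the most abundant of the class, had 2129, 2111 and 2162 CPM in the Torin-2 libraries, 2339.6, 2204 and 2371 CPM in the rapamycin libraries and 2501, 2188 and 2612 CPM in the vehicle libraries. Its change of -0.19 ± 0.07 with Torin-2 against vehicle (adjusted p = 0.0312, edgeR) was lost without any Torin-2 library or vehicle replicates 1 or 3 (0.0632 to 0.113). Gla, an alpha-galactosidase, and Gaa, which degrades glycogen, passed in 0 comparisons, though Gaa gave 0.28 on the log2 scale without vehicle replicate 3 with Torin-2 against vehicle (adjusted p = 0.0144). Of 24 other hydrolases, all tested, 5 rose and 13 fell under Torin-2 and 5 rose and 7 fell under rapamycin against vehicle. Arsb, the arylsulfatase of dermatan sulfate breakdown, had 17.2, 18.3 and 16.2 CPM in the Torin-2 libraries, 49.0, 54.7 and 42.9 CPM in the rapamycin libraries and 59.6, 63.4 and 58.8 CPM in the vehicle libraries. Torin-2 lowered it without overlap (-1.82 ± 0.09, adjusted p = 1.04e-08, edgeR) against -0.31 ± 0.09 for rapamycin. Dpp7, a dipeptidyl peptidase, rose under both (1.42 and 0.75), and Acp5, the tartrate-resistant acid phosphatase, fell under both (-1.95 and -0.99). Over these 24 genes, log2 changes against vehicle ran from -1.95 to 3.35 under Torin-2 and from -1.43 to 0.75 under rapamycin. Some changes in this list were thus larger than those named.

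Hydrolases reach the lysosome through sorting receptors and enzymes, of which 10 were tested. Under Torin-2 against vehicle 3 rose and 6 fell, and under rapamycin 4 rose and 3 fell. Igf2r, the larger mannose phosphate receptor, had 168, 145 and 163 CPM in the Torin-2 libraries, 134, 105 and 101 CPM in the rapamycin libraries and 61.1, 58.4 and 64.3 CPM in the vehicle libraries. Both compounds raised it (1.37 ± 0.10 and 0.88 ± 0.10, adjusted p = 2.45e-07 and 2.61e-05, edgeR), while M6pr, the smaller receptor, fell with both (-0.51 and -0.22). Sort1, which carries some hydrolases without the mannose phosphate tag, fell under Torin-2 and rose under rapamycin (-0.88 and 0.43). Of the 4 MiT/TFE factor genes, Mitf, Tfe3 and Tfeb rose under Torin-2 (1.84, 1.10 and 1.00) and under rapamycin (1.30, 0.80 and 0.80), all called. The remaining factor gene passed with neither compound against vehicle, at 0.15 with Torin-2 and -0.42 with rapamycin. These are transcript levels, not activity.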

How the data were processed

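The authors deposited raw counts per gene for 9 libraries (paired-end reads of 100 bp). The submitters' processing notes name STAR 2.5.2a, FastQC, bcl2fastq, GRCm38.p6 and mm10. How reads were assigned to genes, on which strand and with which annotation is not given in those notes. The tests used edgeR 4.0.16 (R 4.3.3, limma 3.58.1). Genes kept by filterByExpr (12511, with 99.92% to 99.94% of counts) were scaled by TMM (factors 0.955 to 1.05). All 9 libraries entered 1 quasi-likelihood fit of 3 groups (common biological coefficient of variation 9.96%), and 3 contrasts were tested 2-sided and adjusted by Benjamini-Hochberg over the 12511 genes. The SE of a log2 change was its size divided by the square root of F. The 40 genes had 527 to 58408 counts per library. TPM and ratios use exon lengths of GENCODE M21, which held 53237 of the 53342 identifiers. Promoter windows are from RefSeq. The procedure was tested on simulated counts of 12511 genes, all given the common coefficient of variation, with changes set in the Torin-2 libraries. Against vehicle, 91 of 100 changes of 2-fold and 58 of 100 changes of 1.5-fold were recovered, with 13 false calls. No other gene was changed in the simulation, and rises and falls were equal in number, whereas 65.4% of all genes were called in the data. The changed genes were drawn from all count levels, so these rates are not those of the 40 genes. Smaller changes were not simulated, so a gene that did not pass may still differ.

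The 40 genes, the other lists and the rule for named genes were chosen with earlier results of these data known. By that rule every one of the 40 genes is accounted for, with library values for up to 3 of the largest called changes in each direction, class and comparison, for the most abundant gene of each class and for genes that the compounds moved in opposite directions from vehicle. From each other list it takes up to 3 of the largest changes each way, among genes averaging at least 1 CPM. Only some of these are named. Deviations from group means correlated at 0.168 to 0.500 between libraries with the same replicate number (9 pairs) and at -0.358 to 0.162 otherwise. Replicate 3 stood apart most, while replicates 1 and 2 were hardly told apart. Torin-2 replicate 1 gave 0.174 with vehicle replicate 1 and 0.162 with rapamycin replicate 2. The libraries may thus be paired by number. The main fit had no replicate block and left any pairing out, and blocked values are given where they change a call. Alternatives were DESeq2 1.42.0, its size factors, library totals alone, no filter, the replicate block, the 2 groups compared alone, omission of replicate 3 of every group, and omission of each library.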

Additional observations from a re-analysis of the deposited data

How the results depend on the processing

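Most results kept their direction and call under the alternatives. Over the log2 changes of single genes, 602 values stayed on their side of the threshold, 13 became called and 25 lost their call with Torin-2 against vehicle. The same counts were 595, 11 and 33 with rapamycin against vehicle, and 602, 10 and 28 with Torin-2 against rapamycin. The sign changed in 1 value with Torin-2 against vehicle, 21 with rapamycin against vehicle and 11 with Torin-2 against rapamycin that passed the threshold on neither side, and in 1 that became called: Gaa gave 0.21 with rapamycin against vehicle without replicate 3 of every group (adjusted p = 0.0400, edgeR); the cause was not tested. Library totals alone, which shift the median of all genes by -0.09 for rapamycin against vehicle, gave 19 lower genes there, with 12 of the pump and 4 of the hydrolases, and median log2 changes of -0.13 for all 40 genes, -0.22 for the pump and -0.0387 for the membrane proteins. For Torin-2 against rapamycin they gave 13 lower genes, 2 higher and 4 lower pump genes, 2 higher hydrolases, and medians of -0.0778 for all 40, -0.11 for the pump and -0.0369 for the hydrolases. Class sums became 6973 CPM for the pump in vehicle, 5003 CPM for the hydrolases in Torin-2 and 5284 CPM for the hydrolases in rapamycin.

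With Torin-2 against vehicle, 2 pump genes were higher with no filter and with the replicate block. With rapamycin against vehicle, DESeq2 gave 1 higher pump gene, Atp6ap1. With Torin-2 against rapamycin, 2 pump genes were higher with DESeq2, no filter, the replicate block, or without replicate 3 of every group, which also gave a hydrolase median of -0.17. With no filter the calls of Atp6v0a1 (Torin-2 against vehicle), Cln3 and Fuca1 (rapamycin against vehicle), and Atp6ap2, Atp6v0d1 and Dnase2a (Torin-2 against rapamycin) also ended. Library totals alone added calls of Tcirg1 with both compounds, of Atp6ap2, Atp6v0b, Atp6v1b2, Atp6v1f, Lgmn and Sgsh with rapamycin against vehicle, and of Atp6v1a and Ids with Torin-2 against rapamycin. The block changed no other count of calls by over 1.5 times. Leaving out single libraries gave these ranges. With Torin-2 against vehicle, 0 to 1 pump genes were higher and 1 to 2 membrane protein genes lower, and medians were -0.34 to -0.28 for the pump 0.32 to 0.40 for the membrane proteins and -0.0983 to -0.0067 for the hydrolases. With rapamycin against vehicle, 1 to 3 membrane protein genes were lower, the medians were 0.0142 to 0.0833 for the membrane proteins and 0.0100 to 0.0863 for the hydrolases, and the median of all 40 was -0.0686 to -0.0190. With Torin-2 against rapamycin, 1 to 2 pump genes were higher and the hydrolase median was -0.16 to -0.10. All calls rest on 3 libraries a group, and those with log2 changes under about 0.2 often ended with 1 fewer. Some larger ones did too, such as Atp6v1c1 (-0.32) and Tpcn2 (-0.28) with rapamycin against vehicle.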
